A study of Mus musculus with 8 samples.

Results

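Transcripts of 36 genes of the endoplasmic reticulum (ER) folding machinery and the unfolded protein response were followed in bone-marrow-derived macrophages (BMDMs, Mϕ) that had or had not engulfed apoptotic cells and that were or were not stimulated with LPS/IFNγ. The genes were taken by symbol: the deposited table lists 55359 Ensembl genes, and each of the 36 symbols matched a single identifier through mouse GENCODE annotation. Of these, 35 had a mean of at least 10 normalized counts over the 8 samples and were tested among 16309 genes, and Derl3 was below this level. BMDMs came from adult male and female C57BL/6 wildtype mice and were grown with M-CSF and GM-CSF. The 4 groups held 2 samples each. Ctrl were naïve Mϕ. LPS were naïve Mϕ given 100 ng/mL LPS together with 100 U/mL IFNγ, and were harvested after 6 h. Eff were efferocytic Mϕ, kept for 16 h with apoptotic NIH-3T3 CA fibroblasts, a clonal line whose caspase-8 is activated by a dimerizer (10 nM), at 5 apoptotic cells per Mϕ. LPSEff were efferocytic Mϕ that received LPS/IFNγ after washing. All cells were purified with CD45 beads before RNA isolation, and no source states whether the samples of a group came from separate animals or cultures, so that p-values measure the spread between these samples, which may be technical.

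Proteins that enter the ER are folded by chaperones, receive glycans and disulphide bonds there, and are sent back to the cytosol for degradation (ER-associated degradation, ERAD) when folding fails. When unfolded protein accumulates, the sensors IRE1 (Ern1), PERK (Eif2ak3) and ATF6 (Atf6) are activated: IRE1 splices Xbp1 mRNA into the form that encodes an active transcription factor, PERK slows translation and favours ATF4, and ATF6 is cleaved to release a transcription factor. XBP1 and ATF6 bind short promoter elements, the ER stress response elements (ERSE and ERSE-II), in front of chaperone and ERAD genes. The counts used here are per gene and do not separate spliced from unspliced Xbp1.

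The promoters of the members were searched for these elements, to show which members carry the letters through which the response is known to act. In 300-base promoters (250 bases before to 50 after the start of the Ensembl canonical transcript, GRCm39), the ERSE, spelled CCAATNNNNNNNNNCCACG and searched on both strands, was present in 10 of the 36 members (27.78%) and in 16 of 12498 promoters of tested protein-coding genes (0.128%), 9 of which belong to tested members. Each match is given on the strand of the motif, with the fixed bases in capitals and the gap in lower case.
Hspa5: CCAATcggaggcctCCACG
Hsp90b1, upstream copy: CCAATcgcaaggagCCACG
Hsp90b1, downstream copy: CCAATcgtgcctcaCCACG
Dnajc3: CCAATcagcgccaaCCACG
Creld2: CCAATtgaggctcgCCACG
Calr: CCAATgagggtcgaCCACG
Canx: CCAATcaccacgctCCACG
Pdia6: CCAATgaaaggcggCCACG
Ero1b: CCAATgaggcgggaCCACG
Syvn1: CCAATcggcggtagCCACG
Derl3: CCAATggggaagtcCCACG
The shorter ERSE-II (ATTGGNCCACG) was found in 4 further members (11.11%, against 0.09602% of the same promoters), Hyou1, Dnajb11, Manf and Herpud1. Hyou1 held both ATTGGgCCACG and ATTGGtCCACG, Manf ATTGGtCCACG, Herpud1 ATTGGgCCACG and Dnajb11 ATTGGcCCACG, the last of these 14 bases downstream of the start.

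The element of Hspa5 lies at chr2:34662037-34662055 on the plus strand, 67 to 49 bases before the transcript start, and that of Syvn1 at chr19:6096562-6096580, also on the plus strand, 44 to 26 bases before the start. The upstream stretch of Syvn1 (chr19:6096456-6096605, plus strand) is printed with its ERSE in capitals because Syvn1 had the largest called rise in naïve Mϕ.
Syvn1: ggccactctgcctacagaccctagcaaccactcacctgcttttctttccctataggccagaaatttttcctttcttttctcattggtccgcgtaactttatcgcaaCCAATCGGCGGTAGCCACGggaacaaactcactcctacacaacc
A second type of element, the core TGACGTG of the unfolded protein response element (UPRE), occurred in 2 members, Hspa5 and Hyou1 (5.556%, against 2.512% of the promoters searched), and that of Hyou1 overlaps its upstream ERSE-II. The distal part of the Hspa5 promoter (chr2:34661854-34661981, plus strand) is printed with this core in capitals.
Hspa5: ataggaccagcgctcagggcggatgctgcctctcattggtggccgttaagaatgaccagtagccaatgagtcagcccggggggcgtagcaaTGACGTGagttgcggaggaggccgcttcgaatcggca
Herpud1 was the only member with the sequence TTGCATCA, the core searched for ATF4 (1 of 36 members, 2.778%, against 0.5441%), and it held an ERSE-II as well. Its stretch at chr8:95112887-95113021 on the plus strand carries the ATF4 core first and the ERSE-II next, both in capitals.
Herpud1: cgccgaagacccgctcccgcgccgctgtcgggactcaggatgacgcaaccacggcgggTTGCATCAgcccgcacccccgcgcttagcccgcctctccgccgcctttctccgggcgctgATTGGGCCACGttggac
These matches describe letters in a window and are not binding sites measured in these cells. ERSE and ERSE-II are known from chaperone and ERAD genes, so their higher shares among the members are a description and no finding. The other 22 members had no ERSE or ERSE-II in the window, among them Edem2, Ero1a, Sdf2l1 and Xbp1, which says only that these exact letters were not within these 300 bases. The 7 tested non-members with an ERSE were Alg12, Gm21970, Hnrnpa3, Pan2, Ptgdr2, Ttc41 and Zfp57, and none of them passed the test in any of the contrasts between groups.

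**Figure D1:**
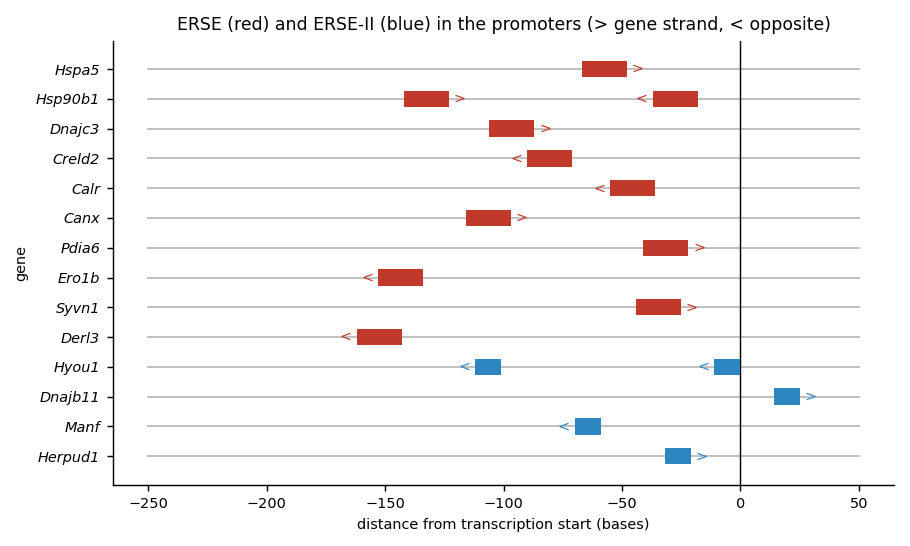
Position of each ERSE (red) and ERSE-II (blue) in the promoters of the 14 members that hold one, in bases from the transcription start at 0. The grey line is the window searched, from 250 bases before to 50 bases after the start, and arrowheads give the strand of the element relative to the gene; all elements except that of Dnajb11 lie upstream of the start.

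As measures of the libraries as a whole, the deposited values were normalized counts, from which between 3481288 (Ctrl 1) and 12020918 (Ctrl 2) reads per sample were recovered, so that 3 reads were worth 1.73 to 5.71 normalized counts. The LPS/IFNγ response was present in the stimulated samples: Nos2 was between 23.7 and 45.7 normalized counts in the 4 unstimulated samples and between 24545 and 50429 in the 4 stimulated samples. All 14 macrophage markers were detected in every group, with a summed level of 15131 to 24683 CPM (counts scaled to the same total in each sample). None of 23 fibroblast markers was at 0 in all samples, although 4 were at 0 in a sample. Their sum in CPM was 427 and 375 for Ctrl and 923 and 1497 for Eff. With stimulation it was 654 and 580.2 for LPS and 1942 and 1804 for LPSEff. The highest of them in Ctrl were Fstl1 (1580 and 1232 normalized counts) and Fn1 (986 and 822). These sums therefore also hold transcripts that were present in samples given no fibroblasts. Markers of dendritic cells (8 genes) summed to 208 to 422 CPM in unstimulated and 729 to 1814 in stimulated samples, those of mast cells and basophils (5 genes) to 104 to 151 and 17.5 to 40.7, those of neutrophils (8 genes) to 104 to 246 and 197 to 297, and those of lymphocytes and plasma cells (11 genes) to 11.8 to 40.2 and 5.5 to 26.4, and their part in the results was not tested. The sum of normalized counts was 6587740 to 6951790 in unstimulated and 8470250 to 9489290 in stimulated samples, so that the scale on which samples are compared matters for every LPS/IFNγ contrast. After rescaling to equal totals, the median of all genes tested moved from -0.01 to -0.40 (log2) in LPS vs Ctrl and from 0.01 to -0.44 in LPSEff vs Eff.

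The members together held 0.965% to 1.22% of all normalized counts in each sample. Per kilobase of canonical transcript, averaged over the 8 samples, Hsp90b1, the ER member of the Hsp90 chaperones, was the most abundant at 3317 normalized counts per kb, followed by Hspa5, the ER Hsp70 known as BiP, at 2892, Calr at 2756, the disulphide isomerase P4hb at 2519.5 and Canx at 1712. At the lower end were Ero1b at 44.1, Ern1 at 59.9, Atf6 at 73.1 and Eif2ak3 at 81.7, so that the 3 sensors stood at ranks 32 to 34 of 36. Xbp1, whose mRNA is spliced by IRE1, ranked 10 at 897. Derl3, a derlin of the ERAD machinery, was the lowest at 6.22 per kb. Its normalized counts were 11.9 and 12.7 for LPSEff, 1.75 and 5.65 for Eff, 7.76 and 10.2 for LPS and 7.62 and 8.67 for Ctrl, too few for the test.

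**Figure D2:**
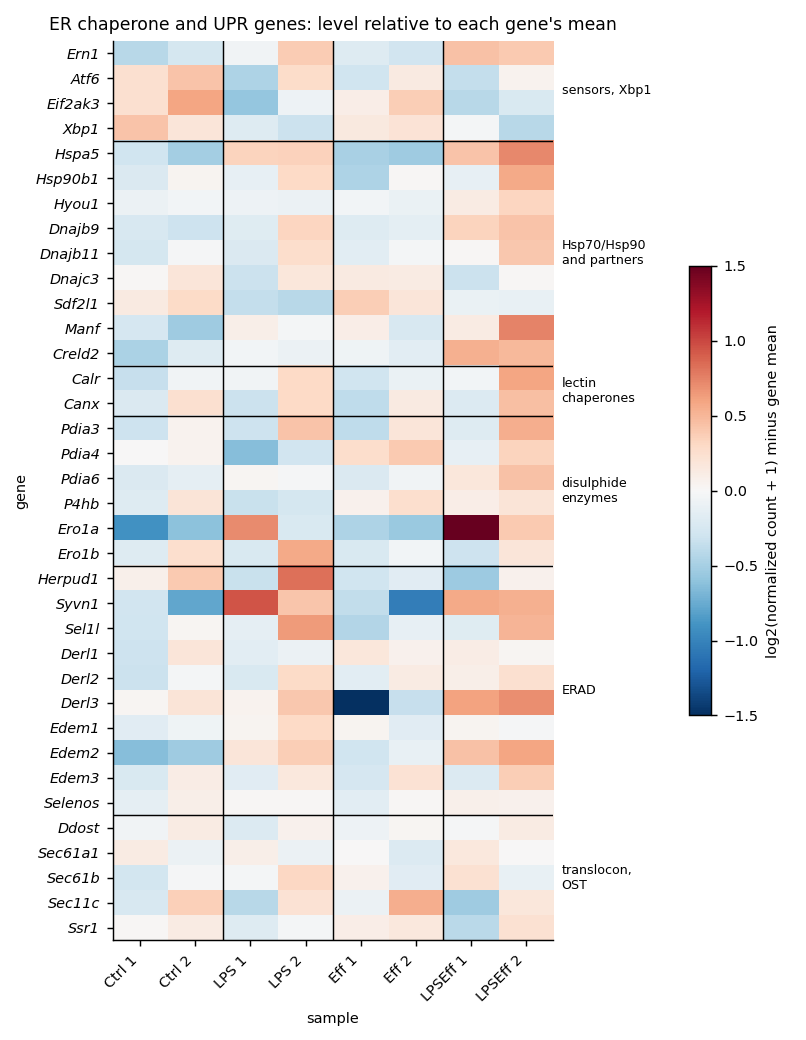
Level of the 36 members (rows, ordered by role) in the 8 samples (columns), as log2(normalized count + 1) minus the mean of the gene, on a colour scale that ends at -1.5 and 1.5. Hspa5, Syvn1 and Edem2 are red in the 4 stimulated and blue in the 4 unstimulated samples, and many genes, such as Pdia3 and Canx, are higher in replicate 2 of each group, while Derl3 in Eff 1 and Ero1a in LPSEff 1 lie beyond the ends of the scale.

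To ask how LPS/IFNγ affected these genes in naïve Mϕ, LPS was compared with Ctrl. A small set moved: Syvn1, Edem2 and Hspa5 rose and Sdf2l1 fell, that is, 3 of the 35 tested members higher and 1 lower at an adjusted p under 0.05 (limma, Benjamini-Hochberg over all genes tested). Of all genes tested, 24.0% passed in either direction, 12.4% higher and 11.6% lower, so that the members' share of 11.43% was below this background. The median log2 fold change of the members was 0.14 (all genes tested -0.01), and it was -0.26 under equal totals. Of the members, 21 of 35 (60%) were higher, beside 49.43% of all genes, and the range was from -0.74 to 1.21. Same-numbered samples deviated together, and with the replicate number as a block 5 members were higher (background 20.5%) and 5 lower (20.7%).

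The ERAD genes held the largest called rise. On GRCm39, Syvn1 (ENSMUSG00000024807) lies at chr19:6096606-6103747, Edem2 (ENSMUSG00000038312) at chr2:155542455-155571395, Hspa5 (ENSMUSG00000026864) at chr2:34661982-34668880 and Sdf2l1 (ENSMUSG00000022769) at chr16:16948002-16950252. Syvn1, which encodes the ubiquitin ligase HRD1 at the centre of ERAD, had 333 and 236 normalized counts in Ctrl and 784 and 542 in LPS. Both LPS samples were above both Ctrl samples, and the log2 fold change was 1.21 ± 0.29 (SE, limma adjusted p = 0.0194), which is 2.32-fold. Edem2, which trims mannose from glycoproteins and so marks them for ERAD, stood at 514 and 552 in Ctrl and at 905 and 1035 in LPS. The groups did not overlap, and the log2 fold change was 0.86 (SE 0.17, limma adjusted p = 0.00941), which is 1.81-fold. Without a single sample in turn, Edem2 passed in 7 of 8 fits (adjusted p from 0.0172 to 0.0645, limma, lost without Ctrl 1 at a log2 fold change of 0.81) and Syvn1 in 6 of 8 (0.0171 to 0.122, limma, lost without Ctrl 2 at 0.97 and without LPS 1 at 0.95). Under equal totals Edem2 passed at 0.46 (limma adjusted p = 0.0395) and Syvn1, at 0.81, did not (0.0883).

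Hspa5 had 11065 and 9548 normalized counts in Ctrl and 17149 and 17186 in LPS. Here, too, the groups were apart, and the log2 fold change was 0.74 ± 0.21 (SE, limma adjusted p = 0.0361), which is 1.67-fold. This value depended on the scaling: it was 0.34 under equal totals, which did not pass, and -0.11 after quantile normalization. It also did not pass in 6 of the 8 fits that left out a sample, those without any of the 4 Ctrl and LPS samples or without Eff 1 or Eff 2 (log2 fold change 0.63 to 0.85, limma adjusted p from 0.0444 to 0.176 over all 8).

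Sdf2l1, a cochaperone of BiP, went the other way, with 1093 and 1218 normalized counts in Ctrl and 776 and 747 in LPS. Its log2 fold change was -0.60 (SE 0.17, limma adjusted p = 0.0337), the LPS samples lay below the Ctrl samples, and it passed under equal totals as well. Leaving out any single sample ended this call (log2 fold change -0.68 to -0.52, limma adjusted p from 0.0542 to 0.163).

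**Figure D3:**
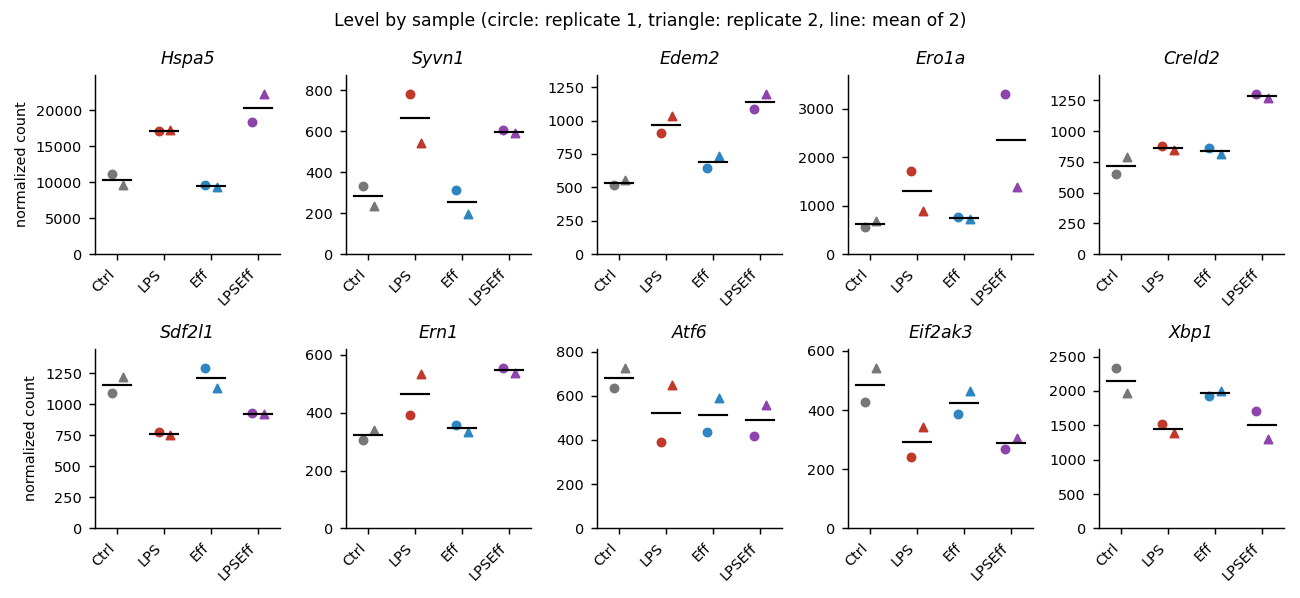
Normalized counts (vertical axis, from 0) of 10 members in the 4 groups, with a circle for replicate 1, a triangle for replicate 2 and a line at the mean of the 2 samples. Hspa5 lies at 9387 to 11065 in the unstimulated and 17149 to 22279 in the stimulated samples, whereas Xbp1 and Eif2ak3 are lower in stimulated samples.

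The genes of the sensors did not pass in naïve Mϕ, but their values went in different directions. Ern1 was 307 and 339 in Ctrl and 393 and 533 in LPS, and the log2 fold change was 0.51 ± 0.20 (SE, limma adjusted p = 0.109, 0.0297 with the replicate block). Eif2ak3 stood at 427 and 542 in Ctrl and at 241 and 342 in LPS. Both LPS samples were lower, and the log2 fold change was -0.74 ± 0.24 (SE, limma adjusted p = 0.0556, 0.00225 with the block), and its value passed with edgeR (adjusted p = 0.0361) and DESeq2 (0.0443). Xbp1 had 2333 and 1967 in Ctrl and 1512 and 1386 in LPS, again without overlap, and the log2 fold change was -0.57 ± 0.20 (SE, limma adjusted p = 0.0716, 0.00879 with the block). Atf6 overlapped between the groups, with 634 and 725 in Ctrl and 391.9 and 649.9 in LPS (log2 fold change -0.43, SE 0.29, limma adjusted p = 0.334, 0.0484 with the block). With the block, the transcript of 1 sensor, Ern1, was thus higher and those of Eif2ak3, Atf6 and Xbp1 were lower. Under equal totals without the block, Eif2ak3 (-1.14, limma adjusted p = 0.00339), Xbp1 (-0.97, 0.00978) and Atf6 (-0.83, 0.0289) passed, whereas Ern1 was 0.10 (0.678).

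Among the other chaperones and partners, Hsp90b1, Hyou1, the J-proteins Dnajb9, Dnajb11 and Dnajc3, the secreted ER protein Manf and Creld2 did not pass in naïve Mϕ, with log2 fold changes from -0.18 (Dnajc3) to 0.42 (Manf). Nor did the lectin chaperones, which hold glycoproteins during folding, with 0.32 for Calr and -0.02 for Canx. Of the disulphide enzymes, Ero1a, the oxidase that recharges the isomerases, had 559.8 and 685 in Ctrl and 1718 and 895 in LPS. Both LPS samples were higher but far from each other (log2 fold change 1.00, SE 0.42, limma adjusted p = 0.131, 0.0205 with the block). Its adjusted p was 0.122 with edgeR and 0.0327 with DESeq2. Pdia4, an isomerase, was 3633 and 3776 in Ctrl and 2331 and 2965 in LPS (log2 fold change -0.49, SE 0.22, limma adjusted p = 0.144, 0.0195 with the block). Pdia3, Pdia6, P4hb and Ero1b lay between -0.30 and 0.19 and did not pass.

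The remaining ERAD genes did not pass. Sel1l, the partner of HRD1, had 1761 and 2211 in Ctrl and 1972 and 3389.8 in LPS (log2 fold change 0.39), and Edem1 had 0.29, Derl2 0.21, Edem3 0.06, Selenos 0.04, Herpud1 0.01 and Derl1 -0.05. The genes of protein entry and glycosylation, the translocon subunits Sec61a1 and Sec61b, the translocon-associated Ssr1, the signal peptidase subunit Sec11c and the oligosaccharyltransferase subunit Ddost, had log2 fold changes from -0.18 to 0.29, and none passed. Under equal totals 1 member was higher (Edem2, 0.46) and 9 were lower, where the median of all genes tested was -0.40. The direction of genes with small values therefore cannot be given apart from the scale. The share of all genes called under equal totals was not counted.

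The same question was asked in efferocytic Mϕ by comparing LPSEff with Eff. Here 5 members rose, Ero1a, Syvn1, Hspa5, Edem2 and Creld2, and none fell. Over all genes 19.7% passed, 10.7% higher and 8.95% lower, against 14.29% of the members. The median of the members was 0.18 (all genes tested 0.01), with 24 of 35 (68.57%, all genes tested 50.32%) higher, and -0.27 under equal totals. With the block, 11 members were higher (background 19.0%) and 4 lower (18.0%).

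Ero1a had the largest change, from 763 and 716 normalized counts in Eff to 3310.1 and 1382 in LPSEff. Its log2 fold change was 1.53 (SE 0.42, limma adjusted p = 0.038), which is 2.89-fold. Both LPSEff samples were above both Eff samples, but LPSEff 1 was far above LPSEff 2. It passed in 3 of 8 fits that left out a sample, was lost without Ctrl 1, Ctrl 2, Eff 1, Eff 2 or LPSEff 1 (limma adjusted p up to 0.196), and was 0.90 without LPSEff 1 and 2.16 without LPSEff 2. A stretch of 53.82% of its transcript is nearly identical to a single other place in the genome, so that its counts are uncertain.

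Syvn1 went from 314 and 198 in Eff to 605 and 590.1 in LPSEff, and the log2 fold change was 1.26 ± 0.29 (SE, limma adjusted p = 0.0189), which is 2.39-fold. Hspa5 went from 9669.8 and 9387 to 18292 and 22279, and the log2 fold change was 1.08 ± 0.21 (SE, limma adjusted p = 0.00899), which is 2.12-fold. Edem2 was 648 and 737 in Eff and 1085 and 1201 in LPSEff (log2 fold change 0.72, SE 0.17, limma adjusted p = 0.0222). In each of these 3 genes the samples of the groups were apart, as in naïve Mϕ. Of the 5 members that rose, only Hspa5 passed under equal totals, at 0.63 (limma adjusted p = 0.0439), with Syvn1 at 0.81, Ero1a at 1.08 and Edem2 at 0.27. After quantile normalization Hspa5 was 0.16 and did not pass (limma adjusted p = 0.645), Syvn1 passed at 1.18 (0.0458), and Edem2, at 0.46 (0.0527), did not. Leaving out single samples kept Hspa5 and Syvn1 in 5 of 8 fits and Edem2 in 4, with limma adjusted p up to 0.0646, 0.121 and 0.148 respectively. Hspa5 was lost without Eff 1 (log2 fold change 1.10), Eff 2 (1.06) or LPSEff 2 (0.94), Syvn1 without Eff 2 (0.93), LPSEff 1 (1.24) or LPSEff 2 (1.28), and Edem2 without any of Eff 1, Eff 2, LPSEff 1 and LPSEff 2 (0.63 to 0.81).

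Creld2, an ER-resident protein with EGF-like repeats induced in ER stress, had 864 and 813 normalized counts in Eff and 1305 and 1268 in LPSEff. The log2 fold change was 0.62 (SE 0.17, limma adjusted p = 0.0384), which is 1.53-fold. In naïve Mϕ the same gene went from 651 and 789 to 878 and 849 (log2 fold change 0.27, limma adjusted p = 0.31). The difference between these changes was 0.35 (SE 0.24) and did not pass (limma adjusted p = 0.9999 for the interaction, 0.825 with the block). Creld2 passed in 3 of 8 fits that left out a sample and was lost without Ctrl 1, Eff 1, Eff 2, LPSEff 1 or LPSEff 2 (log2 fold change 0.57 to 0.66, limma adjusted p from 0.0436 to 0.181) and was 0.17 under equal totals.

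With the replicate block, 6 more members were higher in LPSEff than in Eff: Ern1 (log2 fold change 0.66, limma adjusted p = 0.0531 without and 0.00902 with the block), Dnajb9 (0.56, 0.116 and 0.0307), Calr (0.47, 0.262 and 0.033), Hsp90b1 (0.45, 0.364 and 0.0484), Pdia6 (0.44, 0.133 and 0.0283) and Sel1l (0.44, 0.401 and 0.0462). Under equal totals these values were 0.21 for Ern1, 0.11 for Dnajb9, 0.02 for Calr, -0.005 for Hsp90b1, -0.008 for Pdia6 and -0.01 for Sel1l. The median of all genes tested was -0.44 on that scale. Equal totals with the block called 3 members higher and 13 lower, and the share of all genes called there was not counted. The 4 that were lower with the block were Eif2ak3 (-0.56, 0.146 and 0.0127), Sec11c (-0.41, 0.486 and 0.0274), Xbp1 (-0.40, 0.202 and 0.0489) and Sdf2l1 (-0.39, 0.148 and 0.0448). Ern1 had 358 and 334 in Eff and 554 and 538 in LPSEff, and passed without the block with edgeR (adjusted p = 0.0265) and DESeq2 (0.0326). Eif2ak3 had 386 and 464 in Eff and 269 and 307 in LPSEff, and passed with neither edgeR (0.105) nor DESeq2 (0.157). For Xbp1 the values were 1926 and 2001 in Eff and 1701 and 1302 in LPSEff, and for Atf6 they were 438 and 589 in Eff and 419.6 and 559.7 in LPSEff (log2 fold change -0.07). The values of these 4 genes had the same signs as in naïve Mϕ.

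**Figure D4:**
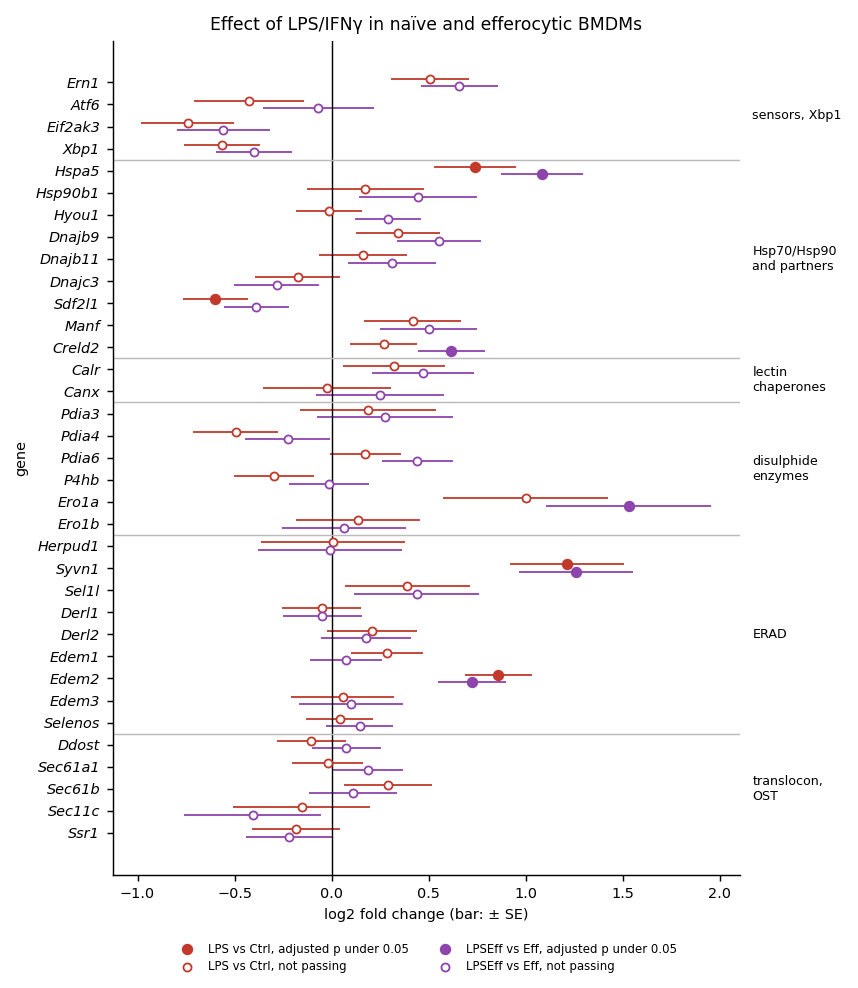
Log2 fold change (horizontal axis, bars ± SE, n = 2 per group) of the 35 tested members with LPS/IFNγ in naïve Mϕ (red, LPS vs Ctrl) and efferocytic Mϕ (purple, LPSEff vs Eff), with filled points for an adjusted p under 0.05. Hspa5, Syvn1 and Edem2 are filled in both contrasts, Sdf2l1 only in LPS vs Ctrl, and Creld2 and Ero1a only in LPSEff vs Eff.

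On the deposited scale, Hspa5, Syvn1 and Edem2 passed in both stimulations. The contrasts used different samples but took the spread of each gene from the same fit, so the passes are not independent. After quantile normalization Hspa5 passed in neither (-0.11 and 0.16, limma adjusted p = 0.743 and 0.645). For the difference in response between naïve and efferocytic Mϕ, tested as an interaction, 0 of 35 members and 0% of all genes passed with limma, with or without the block (0 members at an unadjusted p under 0.05, and 0 with edgeR and with DESeq2). The interaction was above 0 in 26 of 35 members (74.29%), beside 105 of 148 further pathway genes (70.95%) and 51.54% of all genes. Its median over the members was 0.15 (further pathway genes 0.11, all genes tested 0.01). The interaction was 0.53 (SE 0.60) for Ero1a, 0.34 (SE 0.30) for Hspa5 and 0.05 (SE 0.41) for Syvn1.

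When the members were divided by their promoters, those with an ERSE or ERSE-II (13 tested) had a median log2 fold change of 0.17 in LPS vs Ctrl and 0.44 in LPSEff vs Eff, with 10 and 11 of 13 higher. Those without either (22 tested) had medians of 0.01 and 0.09, with 11 and 13 of 22 higher. In LPS vs Ctrl 2 of the 13 and 2 of the 22 passed (24.0% of all genes). With the block 2 of 13 were higher and none lower there, whereas 3 of 22 were higher and 5 lower. In LPSEff vs Eff 3 of the 13 and 2 of the 22 passed (19.7% of all genes). With the block 6 of 13 were higher and none lower, and all 6 were among the 9 with an ERSE. Of the 22, 5 were higher and 4 lower. Over all genes, the block called 20.5% higher and 20.7% lower in LPS vs Ctrl, and 19.0% and 18.0% in LPSEff vs Eff. All 4 members that fell with the block in LPSEff vs Eff and all 5 that fell in LPS vs Ctrl (Eif2ak3, Sdf2l1, Xbp1, Pdia4 and Atf6) were without these elements. This depended on the scale: under equal totals the medians of the members with an element were -0.23 and -0.008 (-0.39 and -0.36 without one), and Dnajc3, which holds an ERSE, passed as lower in LPS vs Ctrl (-0.58, limma adjusted p = 0.0367) and LPSEff vs Eff (-0.73, 0.0153). The division is a description, with no test. The ERSE bearers outside the list gave no common direction in LPS vs Ctrl, with log2 fold changes from -0.63 (Ttc41) to 1.03 (Ptgdr2). In LPSEff vs Eff only Hnrnpa3 was below 0 (-0.56). The others lay from 0.21 (Ptgdr2) to 0.52 (Ttc41), and none passed.

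To assess efferocytosis alone, Eff was compared with Ctrl. No member passed with limma, and none had an unadjusted p under 0.05 or passed with edgeR or DESeq2, at a background of 0.251% of all genes (2.67% with the block, which called no member either). The members lay between -0.47 (Herpud1) and 0.37 (Edem2), with a median of 0.04 (all genes tested -0.01), and 20 of 35 were higher (57.14%, all genes tested 48.46%). Hspa5 was 11065 and 9548 in Ctrl and 9669.8 and 9387 in Eff, a log2 fold change of -0.11 (SE 0.21), and Xbp1 was 2333 and 1967 against 1926 and 2001 (-0.13, SE 0.20). Ern1 had a log2 fold change of 0.10 (SE 0.20), Eif2ak3 -0.18 (SE 0.24) and Atf6 -0.42 (SE 0.29), and no change of the sensors was detected. Fibroblast markers were at 923 and 1497 CPM in Eff and 427 and 375 CPM in Ctrl, and their part in these values was not tested. Edem2 came nearest, with 514 and 552 in Ctrl and 648 and 737 in Eff (log2 fold change 0.37, SE 0.17, limma adjusted p = 0.862).

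Prior efferocytosis under stimulation was assessed by LPSEff vs LPS. Again no member passed with limma (background 0.773%; 2 members had an unadjusted p under 0.05, and edgeR and DESeq2 called 0). Of the members, 26 of 35 (74.29%) were above 0, beside 102 of 148 further pathway genes (68.92%) and 49.7% of all genes. Their median was 0.13 (further pathway genes 0.11, all genes tested -0.003) and -0.017 without LPS 1. With the block, Creld2 and Pdia4 passed, at a background of 6.97%. Creld2 went from 878 and 849 in LPS to 1305 and 1268 in LPSEff (log2 fold change 0.57, SE 0.17, limma adjusted p = 0.248, 0.0364 with the block), without overlap. Pdia4 went from 2331 and 2965 to 3343 and 4559 (0.57, SE 0.22, limma adjusted p = 0.408, 0.0425 with the block), also without overlap. Neither passed in any of the 8 unblocked fits without a single sample. The chaperone group had 8 of 9 members above 0 (median 0.28) and the disulphide enzymes 5 of 6 (median 0.37), with Ero1a at 0.79 (SE 0.42) and P4hb at 0.44 (SE 0.21). The ERAD genes were near 0 (5 of 9 above 0, median 0.05, Herpud1 lowest at -0.48). Among the further pathway genes, 20 of 24 other folding enzymes, 21 of 28 translocon and related genes and 14 of 15 collagen-modifying enzymes were above 0. So were 19 of 28 transport genes, 12 of 23 other ERAD genes, 12 of 20 PERK branch outputs and 4 of 10 ATF6-related genes. Fibroblast markers were also higher in LPSEff (1942 and 1804 CPM) than in LPS (654 and 580.2 CPM), and their part in these values was not tested. In bulk RNA, fewer cells of a type and less RNA per cell cannot be told apart.

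**Figure D5:**
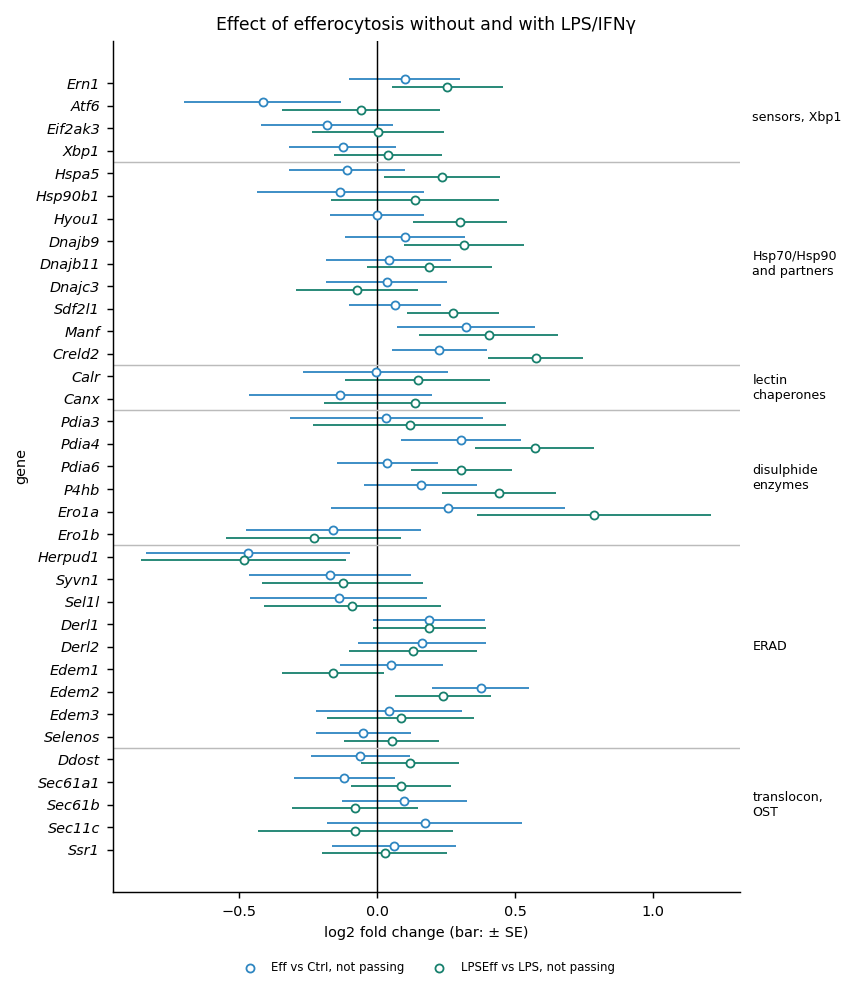
Log2 fold change (horizontal axis, bars ± SE, n = 2 per group) of the 35 tested members with efferocytosis in unstimulated Mϕ (blue, Eff vs Ctrl) and in stimulated Mϕ (green, LPSEff vs LPS). All points are open, since none had an adjusted p under 0.05, and 20 of 35 lie above 0 in Eff vs Ctrl and 26 of 35 in LPSEff vs LPS.

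The wider pathway was described with 150 further genes in 7 lists, 148 of which were tested. In LPS vs Ctrl 13 were higher and 8 lower, and in LPSEff vs Eff 16 and 5, that is 14.19% in each, below the 24.0% and 19.7% of all genes, with medians of 0.02 and 0.09. Outputs of the PERK, ATF4 and CHOP branch had the highest median of the 7 lists in both contrasts: of 20 genes, 4 were higher and 1 lower in LPS vs Ctrl, and 5 and 1 in LPSEff vs Eff, with medians of 0.54 and 0.85 (0.15 and 0.40 under equal totals). The called shares of this list, 25% and 30%, stand beside 24.0% and 19.7% of all genes. Ppp1r15a, the phosphatase subunit that restores translation after PERK activation, rose, with log2 fold changes of 1.93 ± 0.25 (SE, limma adjusted p = 0.00132) and 1.80 (SE 0.25, 0.00212) in LPS vs Ctrl and LPSEff vs Eff. The stress factor Atf3 rose by 1.45 (limma adjusted p = 0.0184) and 2.25 (0.00319), and Ddit4 by 2.76 (0.0339) in LPSEff vs Eff. The LPSEff samples were far from each other in both genes. Ddit4 had 145 and 163 normalized counts in Eff and 2126 and 511 in LPSEff, and Atf3 had 956 and 934 in Eff and 5901 and 3415 in LPSEff. Atf5, the 1 gene of this list that was lower, is named after its values were seen: its log2 fold changes were -0.89 (limma adjusted p = 0.0211) and -1.01 (0.0144). Also named outside the rule for genes, Atf4 itself had 0.31 and 0.49 and did not pass (limma adjusted p = 0.378 and 0.181), and Ddit3, which encodes CHOP and whose identifier overlaps a second of the same name, had -0.37 and -0.38 (0.343 and 0.348).

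Other folding enzymes moved in both directions. In LPS vs Ctrl 1 of 24 was higher, the J-protein Dnajc1 (log2 fold change 1.43, limma adjusted p = 0.00126), and 3 were lower, among them the glucosidase Mogs (-1.04, 0.00613) and Txndc5 (-1.01, 0.00703). In LPSEff vs Eff 2 were higher and 2 lower, with Dnajc1 at 1.61 (limma adjusted p = 8.25e-04) and Mogs at -0.92 (0.0116). Of the other ERAD genes, 1 of 23 passed in LPS vs Ctrl, the membrane ubiquitin ligase Rnf139 (1.21, limma adjusted p = 0.0425), and 2 in LPSEff vs Eff, Nploc4 (0.67, 0.0436) and Ubl4a (-0.76, 0.0374). Other genes of the translocon, oligosaccharyltransferase and signal peptidase had 8 of 28 values above 0 in LPS vs Ctrl and 2 called lower, Tram1 (-0.76, limma adjusted p = 0.0109) and Stt3b (-0.61, 0.0443). In LPSEff vs Eff 9 of 28 were above 0, with 1 called higher and 1 lower. Of the genes of transport from and to the ER, 4 of 28 were higher in each contrast and none lower (with the block 6 higher and 5 lower in LPS vs Ctrl, and 5 and 0 in LPSEff vs Eff), and Sec24b, a COPII coat subunit, had 1.31 (limma adjusted p = 0.00152) and 0.89 (0.0102). No gene of ATF6 processing and its relatives passed (10 tested), and with the block Atf6b did in LPSEff vs Eff (0.42, limma adjusted p = 0.18, 0.0415 with the block). Collagen-modifying enzymes had 3 of 15 higher and 2 lower in LPS vs Ctrl and 3 higher and none lower in LPSEff vs Eff. Plod2, a lysyl hydroxylase, had 2.24 (limma adjusted p = 0.00371) and 2.28 (0.00399). In LPS vs Ctrl, where 24.0% of all genes passed, the shares were 16.67% (folding), 4.348% (ERAD), 7.143% (translocon), 14.29% (transport) and 33.33% (collagen). In LPSEff vs Eff (19.7% of all genes) they were 16.67%, 8.696%, 7.143%, 14.29% and 20%. With the block, the transport list was at 39.29% and 17.86%, beside 41.19% and 36.99% of all genes.

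With efferocytosis, the calls without the block fell in the list of collagen-modifying ER enzymes, which act on procollagen in cells that secrete matrix. In LPSEff vs LPS 4 of 15 were higher and no other pathway gene passed, and in Eff vs Ctrl 1 was, Fkbp9. These calls were 2.703% and 0.6757% of the 148 pathway genes tested, beside 0.773% and 0.251% of all genes. With the block, 7 pathway genes were higher and 1 lower in LPSEff vs LPS, which was 5.405%, below the 6.97% of all genes. Of these, 4 were collagen-modifying enzymes and the others Txndc5, Fkbp11, Kdelr3 and, lower, Bcl2l11. In Eff vs Ctrl 4 collagen-modifying enzymes were higher and Bbc3 was lower with the block. This was 3.378% of the pathway genes, beside 2.67% of all genes. Serpinh1, the collagen chaperone, had 9.05 and 24.4 normalized counts in LPS and 474 and 445 in LPSEff, and the log2 fold change was 4.85 ± 0.83 (SE, limma adjusted p = 0.0471). Fkbp9, a prolyl isomerase of the ER, had 22.0 and 20.3 in LPS and 203 and 251 in LPSEff (3.36, SE 0.44, limma adjusted p = 0.0257), and 7.62 and 11.6 in Ctrl and 59.6 and 147 in Eff (3.19, SE 0.44, limma adjusted p = 0.0402). Of the 23 fibroblast markers, 17 were higher in both Eff than in both Ctrl samples, none was lower and 6 overlapped. Between LPSEff and LPS, 16 were higher, 1 was lower and 6 overlapped. Of the 14 macrophage markers, 2 were higher, 3 were lower and 9 overlapped in Eff vs Ctrl, and 2, 1 and 11 in LPSEff vs LPS. The share of all genes that separate in this way was not counted. Fstl1, the most abundant fibroblast marker per kb, overlapped, with 1580 and 1232 in Ctrl and 709 and 1655 in Eff. Fn1 came next, with 986 and 822 in Ctrl and 2902 and 3726 in Eff. Col1a2 followed, with 7.62 and 39.9 in Ctrl and 582 and 1107 in Eff. The part of fibroblast RNA in these enzymes was not tested. Hspa5 had a log2 fold change of -0.11 in Eff vs Ctrl.

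Samples with the same replicate number resembled each other in these genes. Of 35 members, 14 differed between replicate 1 and replicate 2 across the groups (limma adjusted p under 0.05 for the number as a term), 13 of them higher in replicate 2, at 23.48% of all genes. The largest were Sec11c (log2 difference 0.64, SE 0.09), Pdia3 (0.60, SE 0.11) and Canx (0.57, SE 0.10), each higher in replicate 2 in all 4 groups. Syvn1 was the exception among the 14, lower in replicate 2 in all 4 groups (-0.43, SE 0.12). Sec61a1 was also lower in all 4 groups but did not pass (-0.18, SE 0.09, limma adjusted p = 0.154). Hspa5 (0.01, SE 0.12) and Creld2 (0.02, SE 0.10) differed by less than their error. Recovered reads were fewer in replicate 1 than in replicate 2 in Ctrl, LPS and Eff and more in LPSEff, and their part was not tested.

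For some members the counts are uncertain by sequence. Besides Ero1a, 4 canonical transcripts share at least 100 bases at 97% identity or more with another place in GRCm39: Ero1b over 83.09% of its length, Manf 42.55%, Dnajb9 40.59% and Sec61b 37.97%. Manf also overlaps Rbm15b on the same strand over 3962 exonic bases. Hspa5 overlaps Rabepk on the opposite strand over 2457 exonic bases, Xbp1 overlaps Ccdc117 over 1526, and Ddost overlaps Pink1 over 1514, and the weight of such overlaps depends on the use of strand. Per the methods, the adapter was ligated to the RNA fragments, which keeps the strand, and counting used the default mode of htseq-count, which reads it.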

How the data were processed

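Total RNA of 8 BMDM samples was depleted of rRNA and sequenced as single-end reads of 50 cycles. The authors used cutadapt for trimming, bowtie2 for removal of rRNA, STAR for mapping to mm39, htseq-count (defaults) for counting, and DESeq2. They deposited a signal per gene, the normalized count (reads divided by a size factor per sample), from which whole reads were recovered for 100% of values (tolerance 0.01). Annotation release and tool versions are not given in the sources used here. The differentiation lasted 7 days per the labels and 6 in the methods.

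No other sample column was found in the table. The 36 members and all lists were chosen with earlier results of these data known. limma (3.58.1, R 4.3.3, trend) was fitted on log2(normalized count + 1), with 16309 genes at or above a mean of 10, over 4 groups (4 residual degrees of freedom), with Benjamini-Hochberg adjustment over all genes. Fold changes are on this scale and understate changes of low genes. With 2 samples against 2, the smallest exact permutation p is 0.333. Replicate numbers come from the sample names. The differences between replicates 1 and 2 correlated between all groups (r from 0.404 to 0.595 over genes), so the number was taken as pairing and used as a block (3 residual degrees of freedom) beside the unblocked result. Called members received values per sample, the sensors, Xbp1 and Hspa5 always, and up to 3 called genes per pathway list. Alternatives were pseudocounts of 0.5 and 5, other filters (mean above 0, at least 50), only the groups compared, equal totals, quantile normalization, edgeR (4.0.16) and DESeq2 (1.42.0) on recovered reads, and leaving out each sample. Tests were also run on counts simulated without a difference between replicate numbers, so these runs cannot weigh the blocked against the unblocked result. Promoters and overlaps were read from GRCm39 with GENCODE annotation. Floors in reads cover counting error only, and SEs are from the spread between samples.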

Additional observations from a re-analysis of the deposited data

How the results depend on the processing

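The number of members called was 4 in LPS vs Ctrl, 5 in LPSEff vs Eff and 0 in the other contrasts. It fell to 2 and 3 when all genes with a mean above 0 were tested, and to 2 in LPS vs Ctrl with only the groups compared. Pairing by the replicate block gave 10, 15 and, in LPSEff vs LPS, 2 members, and changed no call of the members beyond those named. Equal totals gave 10 in LPS vs Ctrl (1 higher, 9 lower) and 7 in LPSEff vs Eff (1 higher, 6 lower). Quantile normalization gave 13 and 10 (2 higher and 11 lower, 2 and 8). The share of all genes called was not counted for these scalings or for the combinations that follow. Combinations added after the values had been seen gave 10, 13 and 2 for edgeR with the block, 9, 12 and 2 for DESeq2 with the block, and 16 (2 higher, 14 lower), 16 (3 higher, 13 lower) and 2 for equal totals with the block, with the cause not tested. Leaving out a sample gave 1 to 3 members in LPS vs Ctrl (1 without Ctrl 1, Ctrl 2 or LPS 1), 0 to 6 in LPSEff vs Eff (0 without Eff 2, 1 without Eff 1, LPSEff 1 or LPSEff 2) and 0 in LPSEff vs LPS. Eff vs Ctrl and the interaction stayed at 0 under every alternative run. Hspa5 in LPS vs Ctrl turned to -0.11 after quantile normalization. Of 273 combinations of 13 named gene results and a setting, 191 kept direction and side of the threshold, 57 no longer passed, 24 passed newly and 1 turned. The median of the members in LPS vs Ctrl was -0.05 without LPS 2, and in Eff vs Ctrl, LPSEff vs LPS and the interaction it also fell below 0 without a single sample (-0.03 without Ctrl 1, -0.018 without Eff 2, and -0.017 and -0.035 without LPS 1). With 2 samples a group, small changes of single members are beyond what these data resolve.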
